A study of Mus musculus with 18 samples.

Results

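Glycolysis and the response to low oxygen were followed in mouse macrophages through a list of 36 genes, taken from the 22485 genes of the table by exact gene symbol. Of these, 34 were measured, on 55 array features. Gpi1 and Eno1 were not found under these symbols, and synonyms were not used. Of the measured genes, 12 had several probes, which were averaged, and 22 had 1. The list was drawn up by function, with earlier results of these data known. Each value is a log2 ratio of a sample to an untreated macrophage reference hybridised to the same array, so that a value of 1 is a doubling. A difference is one between group means of these ratios. Ratios do not give the level of one gene against another.

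The macrophages were grown for 7 days from the bone marrow of mice of 8 to 10 weeks with M-CSF at 10 ng/ml. The genotype was wild type (Nrf2+/+) or knockout (Nrf2-/-) for the transcription factor NRF2, which is encoded by Nfe2l2. There were 5 groups on 18 arrays. In wild type, 3 arrays had albumin for 4 h, 3 had LPS, the endotoxin of Gram-negative bacteria, at 10 ng/ml for 4 h, and 3 had heme-albumin at 200 µM for 4 h before the same LPS. In the knockout, 4 arrays had LPS and 5 had heme-albumin before LPS, and no group was without LPS. The treatment protocol speaks of albumin alone or heme-albumin ahead of LPS, but albumin is not named in the labels of the LPS arrays themselves. The design text calls the replicates independent. Arrays of a group are told apart by the letters of their labels.

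Exact zeros made up 17.9% to 48.8% of an array's features, and 44.3% to 48.8% on the 4 LPS-treated arrays lettered a. Among the members, 15 of 612 values were exactly 0, from Mxi1 and Egln3. Nfe2l2 was listed at 0 on all 9 knockout arrays, and on 2 wild-type arrays under albumin. Nqo1, a known NRF2 target, stood at 3.18 ± 0.34 (SD, n = 3) in wild type and 0.46 ± 0.47 (SD, n = 5) in the knockout under heme and LPS. All 8 macrophage markers were measured and none was at 0 on every array, but a ratio to a macrophage reference cannot show whether a marker is present. The group medians of markers of neutrophils, erythroid cells, stromal cells, B cells, and T and NK cells lay between -0.24 and 0.29, and their part in the results was not tested. In bulk RNA, fewer cells of a kind and less RNA per cell cannot be told apart. The genotype of the reference is not given. A difference between references, if wild-type and knockout arrays had different ones, cannot be told apart from a difference between genotypes, but does not enter the effect of heme within a genotype.

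Glycolysis splits glucose into pyruvate and yields ATP without oxygen. Glucose enters through transporters and is phosphorylated by hexokinases and phosphofructokinase. The lower enzymes then recover ATP, and lactate dehydrogenase and the monocarboxylate transporters remove the product. Hypoxia-inducible factor (HIF) is the factor that turns up most of these genes when oxygen is low. Prolyl hydroxylases of the Egln family mark its alpha subunit for destruction in oxygen, and they need iron. In macrophages LPS also raises HIF-1 alpha and glycolysis with oxygen present. NRF2 is released from its inhibitor KEAP1 by oxidative stress and by heme, and it drives genes of antioxidant defence and of sugar metabolism.

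HIF binds the hypoxia response element, whose core is ACGTG or GCGTG, and NRF2 binds the antioxidant response element, whose core is TGACNNNGC. Both were searched on both strands in the 250 bases before the gene starts of RefSeq (GRCm38.p6), where 31 of the 34 measured members matched. Of these 31, 29 (93.5%) held a hypoxia core at 1 or more of their starts, against 41.5% of all 27025 genes. The 31 members have 44 starts and all genes 32851, and counted by start the shares were 77.3% and 38.6%. The list holds textbook HIF targets, so this share describes how it was drawn up. The antioxidant core was in 5 of 31 members (16.1%), against 11.5% of all genes. Of 8 members that rose with heme in wild type and were lower in the knockout under heme and LPS, the windows of 4 of different roles are shown with the hypoxia cores in capitals, each written 5′ to 3′ along the gene, with a core on the other strand as its complement. The 2 cores of Slc2a1 lie 61 and 36 bases before the start, those of Pgk1 150 and 131, and those of Slc16a3 27 and 14. Bnip3 has 5, from 117 to 35 bases before the start, and its ACGTG on each strand overlap in CACGTG.
Slc2a1, chr4:119108495-119108744, plus strand: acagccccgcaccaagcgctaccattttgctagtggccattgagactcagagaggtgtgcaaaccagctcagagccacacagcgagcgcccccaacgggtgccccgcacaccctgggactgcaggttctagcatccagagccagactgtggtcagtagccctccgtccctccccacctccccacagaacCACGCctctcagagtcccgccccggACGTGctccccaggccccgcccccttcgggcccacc
Pgk1, chrX:106186850-106187099, plus strand: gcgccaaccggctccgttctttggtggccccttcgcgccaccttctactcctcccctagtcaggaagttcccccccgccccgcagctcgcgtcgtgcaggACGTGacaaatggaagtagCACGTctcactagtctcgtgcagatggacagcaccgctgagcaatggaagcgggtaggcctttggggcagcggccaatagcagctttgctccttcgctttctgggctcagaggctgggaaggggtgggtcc
Slc16a3, chr11:120948817-120949066, plus strand: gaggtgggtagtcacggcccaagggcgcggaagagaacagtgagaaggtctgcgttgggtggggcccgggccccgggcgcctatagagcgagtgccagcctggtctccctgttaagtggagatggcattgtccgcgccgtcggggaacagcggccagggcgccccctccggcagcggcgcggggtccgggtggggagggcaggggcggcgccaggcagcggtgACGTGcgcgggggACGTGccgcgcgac
Bnip3, chr7:138909507-138909756, minus strand: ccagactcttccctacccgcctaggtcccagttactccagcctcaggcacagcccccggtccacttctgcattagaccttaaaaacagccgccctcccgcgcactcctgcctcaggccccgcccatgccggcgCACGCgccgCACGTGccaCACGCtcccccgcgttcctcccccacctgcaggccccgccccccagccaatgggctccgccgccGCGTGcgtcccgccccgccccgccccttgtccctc
None of these 4 windows held the antioxidant core. Of the 4 such members not shown, Pgam1, Pkm and Kdm3a did not hold it either, and Aldoa did, 220 bases before 1 of its starts. Adm and P4ha2 also rose with heme in wild type and were lower on every knockout array under heme and LPS. They are not among the 8. Adm held the antioxidant core 58 bases before its start, and P4ha2 did not hold it. The 10 members lower in the knockout held a hypoxia core no more often (9 of 10, 90.0%) than the other matched members (20 of 21, 95.2%), and the antioxidant core was in 1 of the 10 and in 4 of the 21. A match of letters is no measurement of binding.

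**Figure D1:**
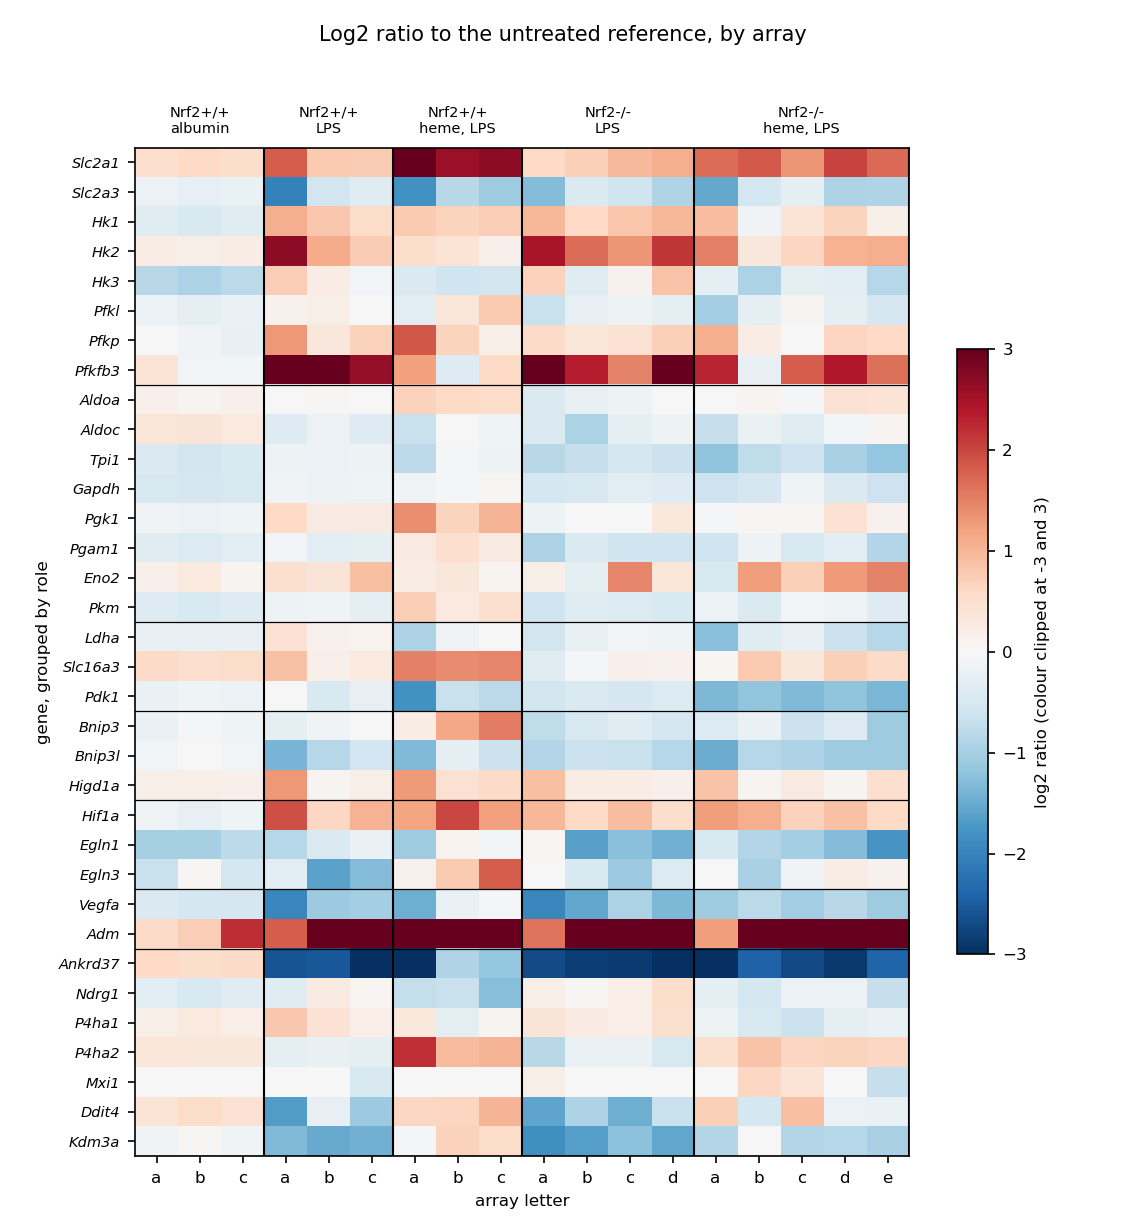
Log2 ratio to the untreated reference (colour, clipped at -3 and 3) of the 34 measured genes (rows, grouped by role, with lines between roles) on the 18 arrays (columns, by group and array letter). Slc2a1 is highest on the 3 wild-type arrays with heme and LPS. Adm is at 1.26 or above on every array with LPS but also reaches 2.21 under albumin, and Ankrd37 is below 0 on every array with LPS.

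Wild-type arrays with LPS were set against those with albumin and no LPS. As the labels name albumin for the latter only, the groups may differ in albumin as well. Of the 8 measured genes of glucose uptake and first steps, 4 rose (Pfkfb3, Hk1, Hk2 and Hk3) and 0 fell. The HIF subunit gene Hif1a rose, and the hypoxia genes Ankrd37, Ddit4, Kdm3a and Bnip3l fell. A gene was called at a limma p adjusted over all 22485 genes under 0.05. By this rule 7 of 34 members rose and 5 fell, 12 in all, while 28.6% of all genes were called (12.3% higher, 16.3% lower). The median difference of the members was 0.28, against 0 for all genes. By this rule the share of members called is near that of all genes. On 15 members every LPS array lay above every albumin array and on 9 every LPS array lay below. Of all genes, 47.2% were apart in either direction.

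Pfkfb3, whose product makes the strongest activator of phosphofructokinase, had log2 ratios of 0.42, -0.08 and -0.07 under albumin and 3.56, 3.15 and 2.64 under LPS. Every LPS array lay far above every albumin array, with a difference of 3.03 ± 0.69 (SE, 8.15-fold, adjusted p = 0.00412). Its 2 probes differed by 1.51 in the size of this rise. The hexokinase genes, which trap glucose in the cell, rose as well. Hk1 rose by 1.21 ± 0.21, Hk2 by 1.33 ± 0.42 and Hk3 by 1.17 ± 0.29. Hk2, the inducible hexokinase, stood at 2.70 on LPS array a and at 1.12 and 0.77 on the others, against 0.17 to 0.22 under albumin. Its rise rests on that array in size, with 0.74 without it (adjusted p = 0.127). The glucose transporter genes Slc2a1 (0.57 ± 0.26, adjusted p = 0.121) and Slc2a3 (-0.77 ± 0.41, adjusted p = 0.193) did not pass.

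In lower glycolysis, Gapdh (0.37 ± 0.10) and Pgk1 (0.52 ± 0.17) rose and Aldoc, the aldolase of brain, fell by 0.67 (SE 0.22). Gapdh encodes glyceraldehyde-3-phosphate dehydrogenase, often taken as a constant reference gene, and Pgk1 encodes phosphoglycerate kinase. The 7 Gapdh probes ranged over 1.13 in this comparison, 5 above 0 and 2 below. Pkm, Tpi1, Pgam1, Aldoa, Eno2 and Ldha were not called. Aldoa was lower on every LPS array than on any albumin array, and the other genes named were higher on every one. With only the compared groups in the fit, Tpi1 (0.31, limma adjusted p = 0.00439), Ldha (0.44, adjusted p = 0.0261) and Pkm (0.22, adjusted p = 0.0350) were called. Pgam1, Aldoa and Eno2 were not called there either. Genes such as Gapdh, Tpi1, Aldoa, Pgk1, Pgam1 and Ldha have processed copies in the mouse genome, and probe positions are not given in the files used here, so a probe may read more than 1 of them.

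Hif1a had ratios of -0.11, -0.24 and -0.13 under albumin and 1.95, 0.63 and 1.03 under LPS, a rise of 1.36 ± 0.29 (SE, 2.57-fold, adjusted p = 0.00277). The prolyl hydroxylase genes Egln1 (0.43 ± 0.42) and Egln3 (-0.71 ± 0.45) were not called, and the 2 Egln3 probes went opposite ways. Of the hypoxia genes, Ankrd37, an ankyrin repeat gene, stood at 0.59, 0.53 and 0.57 under albumin and at -2.60, -2.55 and -3.51 under LPS. The groups lay apart by 3.45 (SE 0.86, 10.9-fold lower under LPS). Ddit4, an inhibitor of mTORC1, fell by 1.47 (SE 0.40) and Kdm3a, a histone demethylase gene, fell by 1.37 (SE 0.24). Bnip3l, a mitophagy receptor gene, fell by 0.88 (SE 0.24). Vegfa, the angiogenic growth factor gene, was at -0.86 ± 0.34 (adjusted p = 0.0721) and Adm, which encodes the vasodilator adrenomedullin, at 1.87 ± 0.83 (adjusted p = 0.111).

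Hk1, Hk3, Pfkfb3, Gapdh, Hif1a, Ankrd37 and Kdm3a kept their calls on leaving out any 1 array. The count fell to 7 of 34 without LPS array a, and Hk2, Bnip3l and Ddit4 lost their calls there (0.74, -0.66 and -1.14). That count is not set against the share of all genes called without this array. Pgk1 (0.41 to 0.57) and Aldoc (-0.74 to -0.64) lost theirs on leaving out any of the 6 arrays, and Hk2 also without any albumin array. With 1 probe per gene Hk1 was at 0.58 and not called. The albumin arrays were much closer to each other than the rest, with a median SD over the members of 0.050 against 0.32 under LPS, while the fit uses 1 spread for all groups.

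Heme before LPS was set against LPS alone in wild type to ask what heme-albumin added. If the LPS arrays had no albumin beforehand, these groups also differ in albumin and in 4 h of treatment ahead of LPS. Here and in the knockout, an effect of heme therefore stands for that of heme-albumin given before LPS. The part of albumin in it was not tested. Heme-albumin raised the glucose transporter Slc2a1, 4 enzymes of lower glycolysis, the lactate exporter Slc16a3, the mitophagy receptor Bnip3 and a set of hypoxia genes led by Adm. It lowered Pfkfb3, Pdk1 and Ndrg1, which is also a hypoxia gene of the list. In all 12 of 34 members rose and 3 fell, while 14.7% of all genes were called, 8.34% higher and 6.35% lower. The median difference of the members was 0.18, against 0 for all genes. On 12 members every heme array lay above every LPS array and on 7 every heme array lay below, against 24.2% of all genes whose groups did not overlap in either direction.

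Slc2a1, the main basal glucose transporter GLUT1, had ratios of 1.81, 0.79 and 0.76 under LPS and 3.24, 2.56 and 2.68 under heme and LPS. The heme arrays were all higher, by 1.70 ± 0.26 (SE, 3.26-fold, adjusted p = 0.000398). Slc2a3, the transporter GLUT3, differed by only -0.25 ± 0.41. Pfkfb3 went the other way, from 3.56, 3.15 and 2.64 to 1.22, -0.38 and 0.60, a fall by 2.64 (SE 0.69, 6.22-fold lower, adjusted p = 0.0176). Its 2 probes gave almost the same fall. Hk2 (-1.16 ± 0.42, adjusted p = 0.0884) and Hk3 (-0.83 ± 0.29, adjusted p = 0.0750) were lower on every heme array than on any LPS array but did not pass.

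Of the 8 measured genes of lower glycolysis 4 rose and 0 fell. Pkm, which encodes pyruvate kinase, had ratios of -0.14, -0.13 and -0.28 under LPS and 0.73, 0.29 and 0.48 with heme, and rose by 0.68 ± 0.11 (adjusted p = 0.000754). Pgk1 rose by 0.63 ± 0.17, Pgam1, phosphoglycerate mutase, by 0.58 ± 0.16, and Aldoa, the main aldolase, by 0.60 ± 0.13. These are changes of 1.49-fold to 1.61-fold. Gapdh (0.08 ± 0.10), Tpi1 (-0.16 ± 0.18), Aldoc (0.06 ± 0.22) and Eno2 (-0.36 ± 0.46) were not called, with 95% intervals from -0.14 to 0.30 for Gapdh and from -0.55 to 0.22 for Tpi1.

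At the exit of the pathway, Slc16a3, which encodes the lactate exporter MCT4, had ratios of 0.88, 0.15 and 0.29 under LPS and 1.51, 1.43 and 1.46 with heme. It rose by 1.03 ± 0.20 (2.04-fold, adjusted p = 0.00289), and the heme arrays hardly differed from each other. Ldha, the lactate dehydrogenase subunit, was lower on every heme array but not called (-0.56 ± 0.26, adjusted p = 0.205), and -0.93 of its heme array a is far from -0.10 and 0.00 on the others. Pdk1, a kinase that inhibits pyruvate dehydrogenase, fell by 0.86 (SE 0.21, limma adjusted p = 0.0118). Its ratios were -1.82, -0.67 and -0.82 with heme against -0.02, -0.45 and -0.26 under LPS.

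Bnip3 had ratios of -0.29, -0.11 and 0.01 under LPS and 0.22, 1.16 and 1.53 with heme, a rise of 1.10 ± 0.27 (2.15-fold, adjusted p = 0.0110). Its relative Bnip3l (0.18 ± 0.24) and the mitochondrial gene Higd1a (0.26 ± 0.32) were not called. Egln3, the hydroxylase that HIF itself induces, went from -0.35, -1.61 and -1.31 to 0.12, 0.77 and 1.82 (1.99 ± 0.45, adjusted p = 0.00653). Both its probes were higher with heme, by 1.44 and 2.55. Hif1a (0.27 ± 0.29) and Egln1 (0.15 ± 0.42) were not called. Adm made the largest rise of the list in this comparison, from 1.81, 3.07 and 4.26 to 5.69, 5.84 and 6.15, by 2.85 ± 0.83 (7.21-fold, adjusted p = 0.0308). Vegfa was at 0.78 ± 0.34 and not called (adjusted p = 0.166), but was called without heme array a (1.23, adjusted p = 0.00842), with 1 probe per gene (0.99) and with array weights (1.01).

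Of the other hypoxia genes, Kdm3a rose by 1.82 ± 0.24 (adjusted p = 0.000113), from -1.33, -1.50 and -1.45 to -0.04, 0.69 and 0.54. Ddit4 rose by 1.77 ± 0.40, from -1.67, -0.25 and -1.08 to 0.62, 0.65 and 1.02. P4ha2, a collagen prolyl hydroxylase gene, rose by 1.66 ± 0.25, from -0.27, -0.21 and -0.29 to 2.20, 0.96 and 1.03. On each of the 3 every heme array was higher than every LPS array. Ndrg1, a stress-induced gene, fell by 0.88 (SE 0.20). The comparisons of LPS with albumin and of heme with LPS share the LPS arrays. Side by side, Kdm3a stood at a mean of -0.05 under albumin, -1.43 under LPS and 0.40 with heme, and Pfkfb3 at 0.09, 3.12 and 0.48. The 2 Pfkfb3 probes went opposite ways for heme and LPS against albumin, at 1.13 and -0.35.

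**Figure D2:**
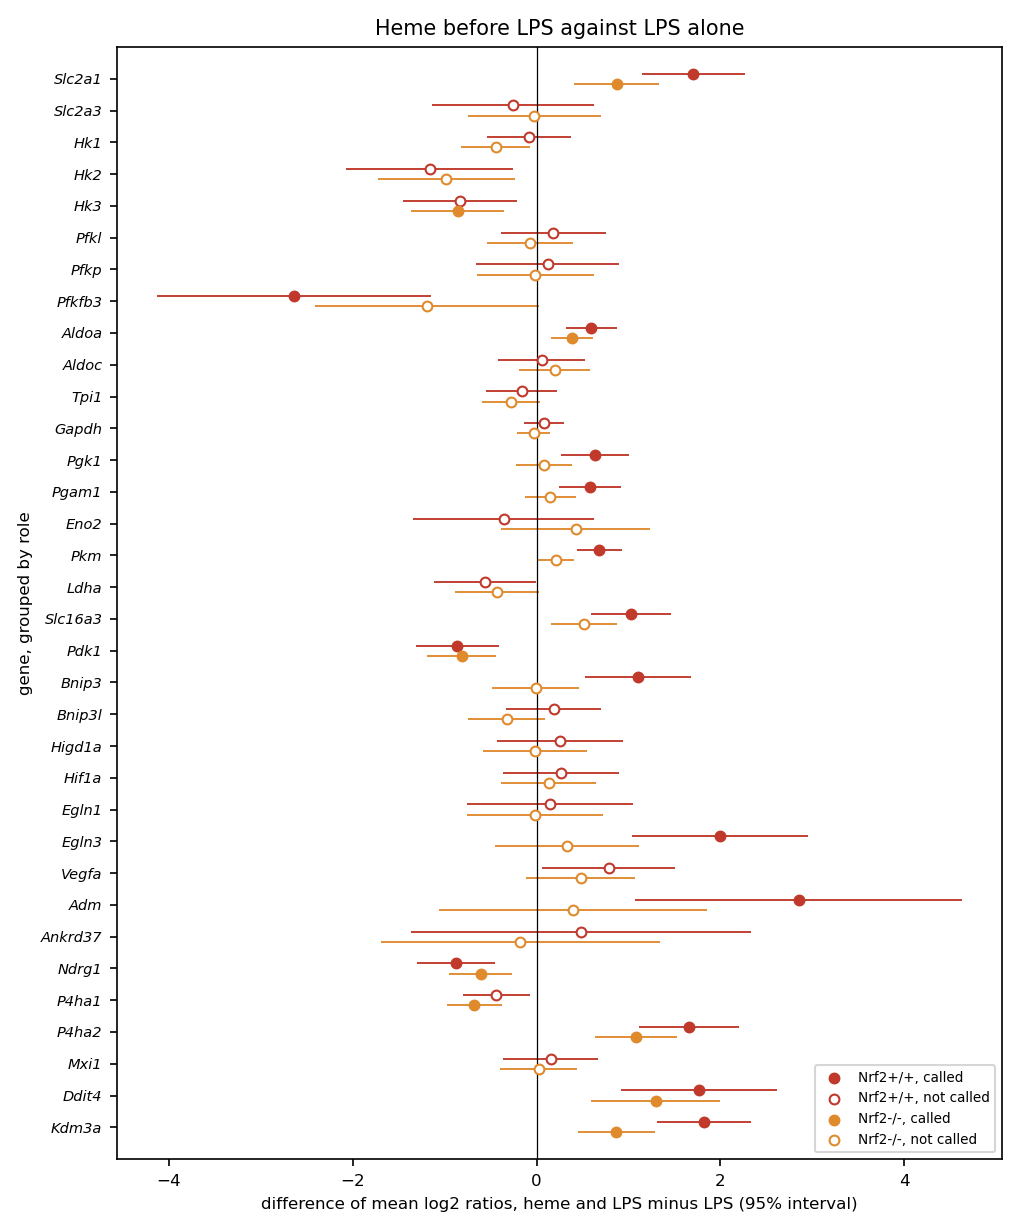
Difference of mean log2 ratios, heme and LPS minus LPS, for each gene in Nrf2+/+ and in Nrf2-/- (points, filled where called, bars are 95% intervals). The wild-type points of Slc2a1, Bnip3, Egln3, Adm and Kdm3a lie to the right of the knockout points, while those of Pdk1, Ndrg1 and Hk3 lie close together.

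With only the wild-type LPS and heme arrays in the fit the values were the same but 3 members were called (Aldoa, Pgam1 and Kdm3a), all higher, and over all genes 1545 were called instead of 3303. Slc2a1, Aldoa, Pkm, Slc16a3, Egln3, Ndrg1, P4ha2, Ddit4 and Kdm3a kept their calls in the full fit on leaving out any 1 array. Of the other calls, Pgk1 (0.45 to 0.82) was lost without heme array a or c or LPS array b or c, Pgam1 (0.50 to 0.65) without heme b or LPS b or c, and Bnip3 (0.82 to 1.48) without heme c. Adm (2.23 to 3.46) was lost without any of the heme arrays or LPS a or b, Pfkfb3 (-3.01 to -2.21) without heme b or LPS a or b, and Pdk1 (-1.08 to -0.50) without LPS a. Pdk1 was at -0.50 without heme array a, and Ankrd37 (0.48 ± 0.86, not called) was called there (1.85, adjusted p = 0.0337). Without LPS array c Hk2 (-1.54, adjusted p = 0.0307) and P4ha1 (-0.58, adjusted p = 0.0454) were called too.

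Against albumin alone, heme and LPS left 13 of 34 members higher and 3 lower, with 27.3% of all genes called (12.9% higher, 14.4% lower). The median difference was 0.45, against 0 for all genes. Adm was higher by 4.72 ± 0.83 (26.4-fold), Slc2a1 by 2.28 ± 0.26 (4.85-fold), Hif1a by 1.63 ± 0.29 and Pgk1 by 1.15 ± 0.17. Pkm, Pgam1, Aldoa, Gapdh, Slc16a3, Bnip3, Hk1, P4ha2 and Egln3 were higher too, by 0.45 to 1.29. Ankrd37 (-2.97 ± 0.86), Pdk1 (-0.93 ± 0.21) and Bnip3l (-0.70 ± 0.24) were lower. Without heme array a, where Ankrd37 stood at -5.15 against -0.90 and -1.17, its difference was -1.60, and those of Pdk1, Bnip3l and P4ha2 were -0.57, -0.41 and 0.65. Of the calls, 14 were kept on leaving out any 1 array. Bnip3l (-0.92 to -0.41) was lost without any albumin array or heme a or c, and Egln3 (0.83 to 1.68) without albumin a or c or heme b or c. Calls gained were Pfkl without heme a (0.79, from 0.49), Aldoc without heme b (-0.75) and Pfkp without heme c (1.37).

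The same comparison, heme and LPS against LPS, was made in the knockout, where the groups may differ in albumin in the same way. There 5 members rose and 4 fell, with 6.77% of all genes called (4.1% higher, 2.67% lower). Slc2a1 rose by 0.87 ± 0.21 (1.83-fold, adjusted p = 0.0238), from 0.60, 0.71, 0.96 and 1.10 under LPS to 1.67, 1.85, 1.33, 2.02 and 1.70. Kdm3a rose by 0.86 ± 0.20, Ddit4 by 1.29 ± 0.33, P4ha2 by 1.08 ± 0.21 and Aldoa by 0.39 ± 0.11. Pdk1 (-0.81 ± 0.17), P4ha1 (-0.68 ± 0.14), Ndrg1 (-0.61 ± 0.16) and Hk3 (-0.86 ± 0.24) fell. The heme comparisons of the 2 genotypes share no samples. All 5 members that rose in the knockout are among the 12 that rose in wild type. Pdk1 and Ndrg1, 2 of the 4 that fell, are among the 3 that fell in wild type. The same overlap was not counted over all genes, so it is not shown to be particular to the members.

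Bnip3 was not called in the knockout (-0.01 ± 0.22, 95% interval -0.48 to 0.46), with ratios of -0.76, -0.48, -0.37 and -0.50 under LPS and -0.41, -0.20, -0.64, -0.39 and -1.07 with heme. Adm was at 0.39 ± 0.68, from 1.62, 3.10, 3.78 and 3.84 to 1.26, 4.52, 3.72, 4.06 and 3.83. Its array a is low in both groups. Pgk1 (0.08 ± 0.14), Pgam1 (0.15 ± 0.13), Pkm (0.21 ± 0.09) and Egln3 (0.33 ± 0.37) were not called, nor was Slc16a3 (0.52 ± 0.17, adjusted p = 0.0873). Pfkfb3, which fell in wild type, was at -1.19 ± 0.57 (adjusted p = 0.306).

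P4ha2, Pdk1 and P4ha1 kept their calls on leaving out any 1 array. The count of 9 fell to 3 without LPS array a, and to 5 without LPS array c or heme array b. With only the 2 knockout groups in the fit it was 4. These counts are not set against the share of all genes called in the same setting. They do not show whether the members moved more than all genes. Slc2a1 (0.79 to 0.97) was lost without LPS a or b or heme b or d, Kdm3a (0.69 to 0.98) without LPS a, and Ddit4 (1.11 to 1.46) without LPS a or c or heme a or c. Aldoa (0.31 to 0.45) was lost without LPS a, b or c or heme b, d or e, Ndrg1 (-0.67 to -0.51) without LPS a, c or d or heme b or e, and Hk3 (-1.08 to -0.68) without LPS a, c or d or heme b, d or e. Without heme array a Hk1 (-0.57, adjusted p = 0.0400) and Slc16a3 (0.63, adjusted p = 0.0247) were called. With the array letter as a replicate block Ndrg1 (-0.53, adjusted p = 0.0881) and Ddit4 (1.38, adjusted p = 0.0545) were not called and Hk2 was (-1.02, adjusted p = 0.0433).

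The heme effect of the knockout minus that of wild type, the interaction, tests the difference itself. It called 0 of 34 members and 0.947% of all genes. At an unadjusted limma p under 0.05 it found 7 members, all lower in the knockout, against 7.91% of all genes. These were Bnip3 (-1.11 ± 0.35, adjusted p = 0.228), Kdm3a (-0.96 ± 0.31), Pkm (-0.47 ± 0.15), Egln3 (-1.66 ± 0.58), Slc2a1 (-0.83 ± 0.34), Pgk1 (-0.56 ± 0.22) and Adm (-2.46 ± 1.07). The interval of Bnip3 runs from -1.86 to -0.37 and that of Adm from -4.75 to -0.16. The value was below 0 for 26 of the 34 members, with a median of -0.25 against 0 for all genes. A smaller heme effect in the knockout was therefore not shown for any single member at the adjusted threshold in the full fit. Bnip3 was called without wild-type heme array a and Kdm3a without knockout heme array b, 1 member each. With array weights Bnip3, Egln3 and Kdm3a were called. The shares of all genes called in these settings are not given here.

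Knockout and wild type were also compared directly under each treatment. Under LPS alone 0 of 34 members were called, and 0.00445% of all genes (1 gene). At an unadjusted limma p under 0.05 there were 5 members, all lower in the knockout, against 2.48% of all genes. They were Gapdh (-0.31 ± 0.09), Tpi1 (-0.50 ± 0.17), Pgam1 (-0.41 ± 0.15), Pkm (-0.27 ± 0.11) and Slc16a3 (-0.46 ± 0.19). On 7 members, Pfkl, Tpi1, Gapdh, Pgam1, Pkm, Ldha and Bnip3, every knockout array lay below every wild-type array and on 0 above, against 3.02% of all genes apart in either direction. The median difference of the members was -0.16, against 0 for all genes.

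Under heme and LPS, 10 of 34 members were lower in the knockout and 0 were higher, with 5.29% of all genes called (2.13% higher, 3.16% lower). They are Slc2a1, the enzyme genes Aldoa, Tpi1, Gapdh, Pgk1, Pgam1 and Pkm, which are 6 of the 8 measured genes of lower glycolysis, and Slc16a3, together with Bnip3 and Kdm3a. The other 7 measured genes of glucose uptake and first steps were not called, but Pfkl (-0.67) was without wild-type array a (-0.97, adjusted p = 0.0236) and with array weights (-0.93, adjusted p = 0.0087). The median difference of the 34 was -0.42, against 0 for all genes, and 27 of the 34 lay below 0.

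**Figure D3:**
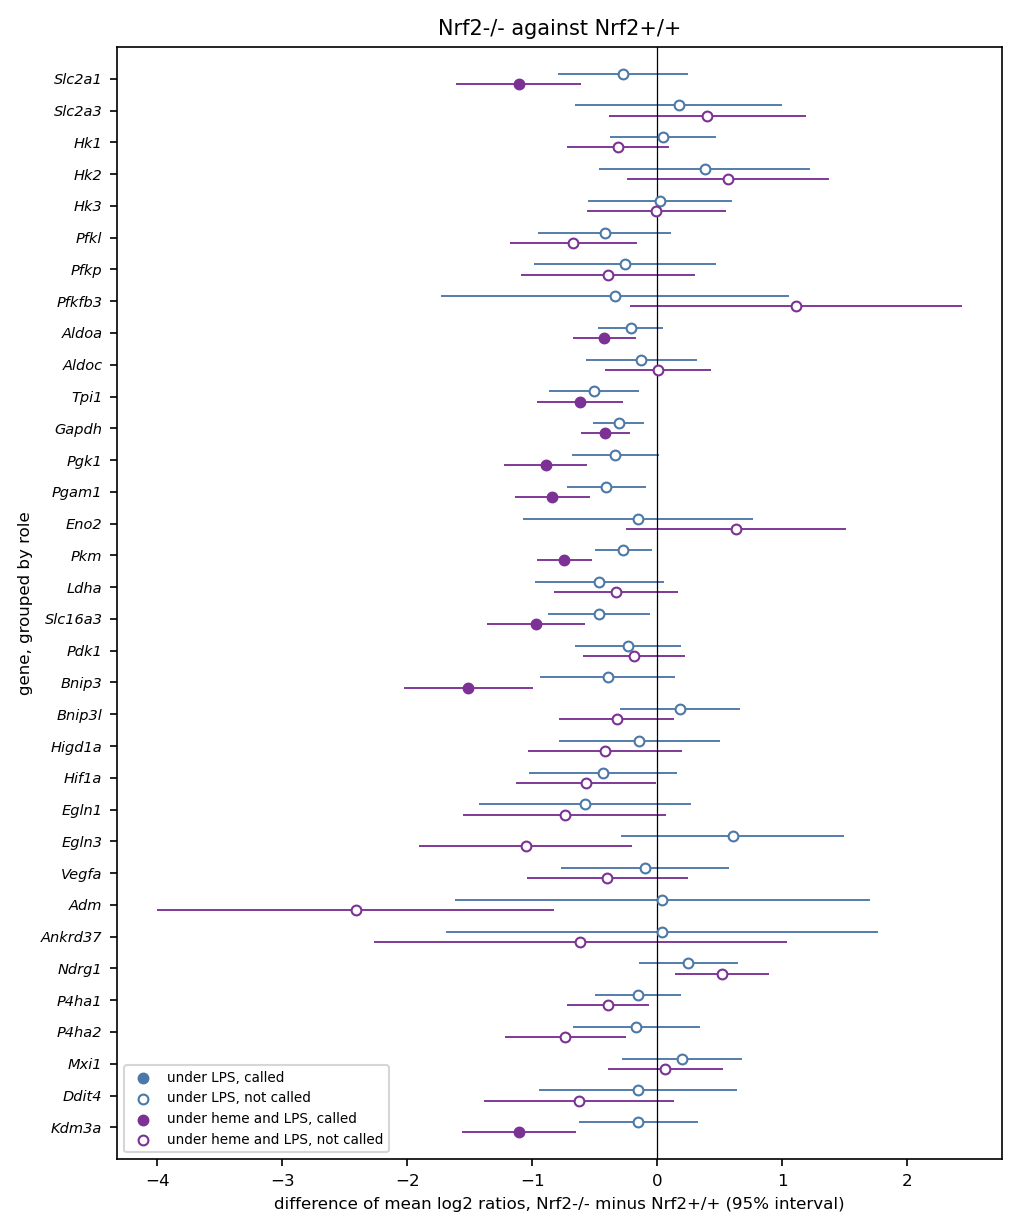
Difference of mean log2 ratios, Nrf2-/- minus Nrf2+/+, for each gene under LPS and under heme and LPS (points, filled where called, bars are 95% intervals). The 10 filled points all belong to heme and LPS and lie to the left of 0, with Bnip3 the farthest at -1.51.

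Pkm had the smallest adjusted p. Its ratios under heme and LPS were 0.73, 0.29 and 0.48 in wild type and -0.18, -0.42, -0.07, -0.14 and -0.39 in the knockout, a difference of -0.74 ± 0.10 (SE, 1.67-fold lower, limma adjusted p = 0.000447). Bnip3 was at 0.22, 1.16 and 1.53 against -0.41, -0.20, -0.64, -0.39 and -1.07, lower by 1.51 (SE 0.24, 2.85-fold, adjusted p = 0.00146). All 3 Bnip3 probes were lower in the knockout, by 1.40 to 1.72. Slc2a1 was at 3.24, 2.56 and 2.68 against 1.67, 1.85, 1.33, 2.02 and 1.70 (-1.11 ± 0.23, 2.16-fold lower, adjusted p = 0.0108). In all 3 genes the genotypes did not overlap.

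Pgk1 was at 1.39, 0.66 and 1.01 in wild type and between -0.04 and 0.46, median 0.05, in the knockout (-0.89 ± 0.16). Pgam1 was at 0.28, 0.50 and 0.27 against -0.60, -0.14, -0.48, -0.35 and -0.88 (-0.84 ± 0.14). Slc16a3 was at 1.51, 1.43 and 1.46 against 0.04, 0.78, 0.34, 0.73 and 0.58 (-0.97 ± 0.18). These 3 were apart by 1.79-fold to 1.96-fold with no overlap. Kdm3a was at -0.04, 0.69 and 0.54 against -0.88, 0.00, -0.87, -0.85 and -0.96 (-1.11 ± 0.21), where knockout array b lies above wild-type array a. Gapdh differed by -0.42 ± 0.09, with ratios of -0.11, -0.06 and 0.04 against -0.61, -0.50, -0.14, -0.44 and -0.61. All 7 of its probes were lower in the knockout, by 0.31 to 0.54. Tpi1 (-0.62 ± 0.16, adjusted p = 0.0384) and Aldoa (-0.42 ± 0.12, adjusted p = 0.0499) were nearest to the threshold among the called genes.

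**Figure D4:**
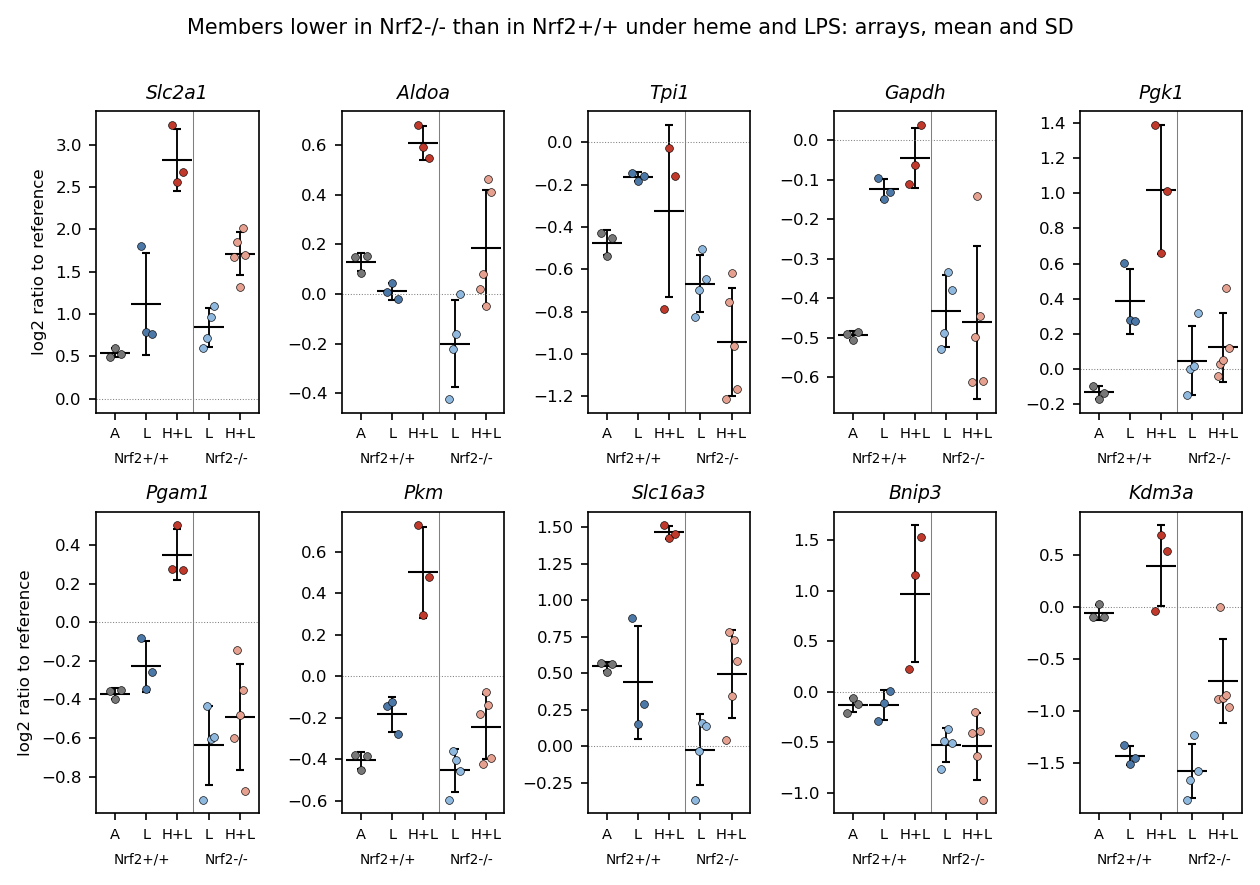
Log2 ratio to the reference of the 10 genes called lower in the knockout under heme and LPS (points are arrays, lines the mean, bars the SD; A is albumin, L is LPS, H+L is heme and LPS; each panel has its own axis). In Slc2a1, Pgk1, Pgam1, Pkm, Slc16a3 and Bnip3 the 3 wild-type arrays with heme and LPS lie above all 9 knockout arrays.

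Just outside the threshold were P4ha2 (-0.74 ± 0.23, adjusted p = 0.0804) and Adm (-2.41 ± 0.74, adjusted p = 0.0816), and in both every knockout array lay below every wild-type array. On 10 members the genotypes were apart in this direction and on 0 in the other, against 7.79% of all genes in either. Adm was at 5.69, 5.84 and 6.15 in wild type and 1.26, 4.52, 3.72, 4.06 and 3.83 in the knockout. Pfkfb3 (1.11 ± 0.62), Hk2 (0.56 ± 0.38), Eno2 (0.63 ± 0.41) and Ndrg1 (0.52 ± 0.18) were above 0 and not called. Hif1a was at -0.57 ± 0.26 (adjusted p = 0.305) and Vegfa at -0.40 ± 0.30, with its 2 probes at -0.89 and 0.09. The same 10 genes were all below 0 under LPS alone, from -0.50 to -0.15, with 0 called. Their interaction values ran from -1.11 to -0.11, also with 0 called, and this comparison shares its heme arrays with the one that chose the 10.

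With only the 2 heme groups in the fit, 1 of the 10 calls remained, Pkm, and the count over all genes was 317 instead of 1189. With the replicate block Tpi1 was not called (-0.55, adjusted p = 0.0691) and Adm was (-2.74, adjusted p = 0.0135). Pgk1, Pgam1, Pkm, Slc16a3, Bnip3 and Kdm3a kept their calls on leaving out any 1 array. Slc2a1 (-1.24 to -0.90) was lost without wild-type array a and Gapdh (-0.50 to -0.37) without wild-type array c. Tpi1 (-0.85 to -0.47) was lost without wild-type array b or c or knockout a, d or e, and Aldoa (-0.49 to -0.37) without any wild-type array or knockout a, b or c. Without wild-type array a Pdk1 (-0.54, from -0.19) and Ankrd37 (-1.99, from -0.62) were called lower as well as Pfkl, and without wild-type array b P4ha2 was (-0.96, adjusted p = 0.0412).

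Genes of neighbouring steps, in 5 further lists, were read beside the members. The shares of all genes called, against which their counts are read, were 28.6% for LPS, 14.7% for heme in wild type, 6.77% for heme in the knockout, 0.947% for the interaction and 5.29% for the genotypes under heme and LPS. In the glycogen list of 12 measured genes, 3 rose and 2 fell with heme in wild type, 1 rose and 3 fell in the knockout, the interaction called 2, both lower in the knockout, and 4 were lower in the knockout under heme and LPS (5.29% of all genes called). The median of the list in that last comparison was -0.26, against -0.42 for the members. Gbe1, the glycogen branching enzyme gene, had ratios of 0.21, -0.05 and -0.06 under LPS and 3.44, 2.73 and 2.60 with heme in wild type. In the knockout it had 0.00, -0.04, 0.03 and -0.22 under LPS and 0.42, 0.33, -0.12, 0.17 and 0.25 with heme. It rose by 2.89 ± 0.18 in wild type, and the interaction was -2.62 ± 0.23 (limma adjusted p = 5.86e-05).

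Ugp2, which makes the UDP-glucose for glycogen, rose in wild type by 0.80 ± 0.09, with an interaction of -0.75 ± 0.11 (adjusted p = 0.00423). Its ratios with heme and LPS were 0.59, 0.63 and 0.42 in wild type and -0.03, 0.01, -0.27, -0.11 and -0.14 in the knockout. Gys1, the glycogen synthase gene, rose in both genotypes, by 1.21 ± 0.23 and by 0.69 ± 0.19, and Pgm1, phosphoglucomutase, was lower in the knockout under heme and LPS by 1.33 (SE 0.17). Gyg, the glycogenin that primes glycogen, fell in both, by 1.66 (SE 0.22) and 1.11 (SE 0.18). The call of Gys1 in the knockout (0.49 to 0.80) was lost without any of heme b to e or LPS a or d, and its lower level in the knockout under heme and LPS (-0.94 ± 0.21) was not called without wild-type array c (-0.75). Pgm1 also fell with heme in the knockout (-0.61 ± 0.15), a call lost without heme c, d or e or LPS a or d and with the replicate block (-0.57, adjusted p = 0.0612).

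**Figure D5:**
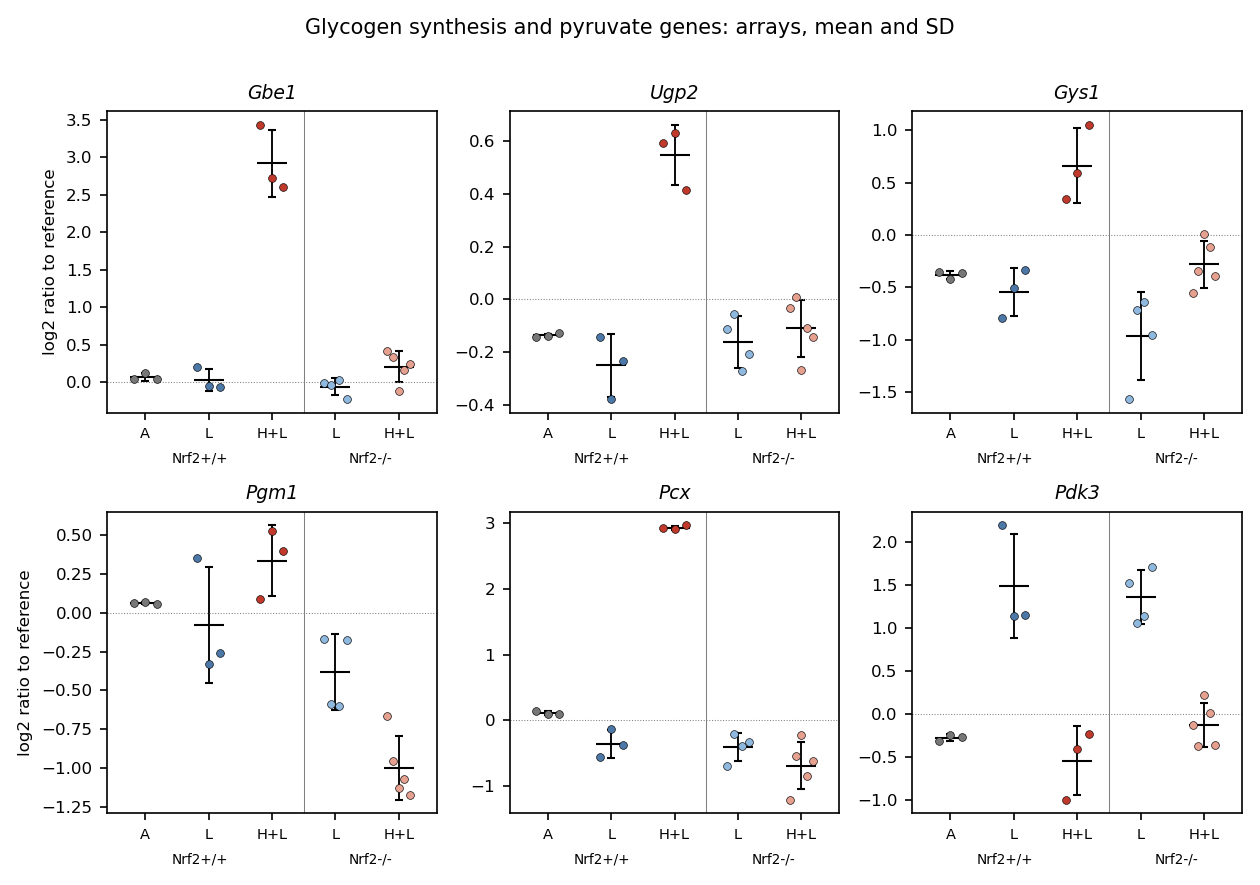
Log2 ratio to the reference of genes of glycogen synthesis (Gbe1, Ugp2, Gys1, Pgm1) and of pyruvate use (Pcx, Pdk3) by group (points are arrays, lines the mean, bars the SD; A is albumin, L is LPS, H+L is heme and LPS; each panel has its own axis). In Gbe1 and Pcx the 3 wild-type arrays with heme and LPS lie between 2.60 and 3.44, and every other array at or below 0.42.

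In the list of pyruvate entry and gluconeogenesis (17 measured), 4 genes rose and 1 fell with heme in wild type, 0 rose and 1 fell in the knockout, and the interaction called 1, Pcx, with a list median of -0.13. Pcx, pyruvate carboxylase, which feeds oxaloacetate to the citric acid cycle, had ratios of -0.57, -0.14 and -0.39 under LPS and 2.93, 2.91 and 2.97 with heme in wild type. In the knockout it had -0.70, -0.21, -0.40 and -0.33 under LPS and -1.21, -0.54, -0.23, -0.85 and -0.63 with heme. The rise in wild type was 3.30 ± 0.19 and the interaction -3.58 ± 0.25 (limma adjusted p = 6.22e-06). Pdk3, a sister of Pdk1, rose under LPS in wild type by 1.77 ± 0.28 and fell with heme in both genotypes, by 2.03 (SE 0.28) and 1.49 (SE 0.23). Of the pyruvate dehydrogenase genes, Pdhb (0.82 ± 0.19) and Pdhx (1.05 ± 0.26) rose with heme in wild type. Pdhx (0.73 to 1.23) lost its call without heme a or LPS b or c.

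The other isoforms and transporters of glycolysis (19 measured) had 1 called higher and 6 lower under LPS, 1 each way with heme in wild type, and 1 higher and 0 lower in the knockout. With heme these shares are no larger than those of all genes (14.7% and 6.77%). Slc2a6, a transporter gene known in macrophages, rose under LPS by 3.08 ± 0.40, while Pfkfb2, a sister of Pfkfb3, fell by 3.04 (SE 0.45) and Bpgm, bisphosphoglycerate mutase, by 1.76 (SE 0.24). In this list 1 gene was higher and 1 lower in the knockout under heme and LPS, Bpgm (0.90 ± 0.22) and Adpgk (-0.72 ± 0.20), and neither was called with the replicate block (adjusted p = 0.129 and 0.0538). Bpgm (0.68 to 1.21) was also lost without wild-type array a or c or knockout e, and Adpgk (-0.88 to -0.55) without wild-type a or b or knockout c, d or e.

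Among 16 further genes of oxygen sensing, 4 rose and 1 fell under LPS, 1 rose and 2 fell with heme in wild type, and 0 were called with heme in the knockout. The 5 of 16 under LPS and the 3 of 16 with heme in wild type are near the 28.6% and 14.7% of all genes. Only Siah1a, a ubiquitin ligase gene that acts on the Egln hydroxylases, was called between genotypes under heme and LPS (-1.18 ± 0.21). Of 38 other hypoxia response genes, 8 rose and 14 fell under LPS, 6 rose and 4 fell with heme in wild type, and 2 rose and 1 fell in the knockout, against 28.6%, 14.7% and 6.77% of all genes. Hilpda, a lipid droplet gene induced by HIF, rose with heme in both genotypes. In wild type it rose by 1.13 ± 0.21, from -0.81, -1.01 and -1.10 to 0.32, 0.17 and -0.02, and in the knockout by 1.38 ± 0.17, from -1.32, -1.41, -0.75 and -0.89 to 0.40, 0.21, -0.24, 0.43 and 0.64. Tfrc, the transferrin receptor gene, which is a HIF target and falls when iron is plentiful, fell with heme in both genotypes, by 1.86 (SE 0.31) in wild type and 1.60 (SE 0.26) in the knockout. Under LPS Angptl4, a lipase inhibitor gene, fell by 4.22 (SE 0.76). Under heme and LPS 1 gene of this list was higher in the knockout, Sap30 (0.82 ± 0.18, lost without wild-type array c), and 3 were lower, among them Errfi1 (-1.62 ± 0.33) and Bhlhe41 (-0.79 ± 0.12). The third, Insig2 (-0.63 ± 0.14), was lost without wild-type array b or c.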

How the data were processed

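The submitters deposited log10 ratios of the sample channel (Cy5) over the reference channel (Cy3), made with Agilent Feature Extraction 10.5.1.1, per the submitters' processing notes. No label states the scale, which was read from how the numbers look and run (-2.146 to 3.5939). Corrections for background and dye are not stated. Depth has no meaning on arrays, and their number limits the precision. Of 44397 features 33026 carried 1 gene symbol and 11371 none. After conversion to log2 ratios, the probes of each gene were averaged, giving 22485 genes. Means of the 5 groups were fitted together over the 18 arrays (limma 3.58.1 in R 4.3.3, lmFit then eBayes), with two-sided tests, p-values adjusted over all genes (Benjamini-Hochberg) and calls at an adjusted p under 0.05. Figures were drawn with matplotlib 3.10.9.

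The members and related lists were chosen with earlier results of these data known. All members could be named, and of the related lists up to 4 called and 2 other genes per list and comparison by size of change. Cited values of further genes of these lists serve as examples.

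Array letters are not stated to mark shared animals or days. Same-letter arrays deviated together in every pair of knockout and wild type under LPS (correlations 0.20 to 0.58), of the knockout groups (0.22 to 0.59) and of the genotypes under heme and LPS (0.23 to 0.53), so the letters were taken to pair these. For wild-type LPS and heme arrays the correlation was 0.48 for letter a, but 0.012 for b and 0.014 for c. For albumin it lay between -0.023 and 0.015. Deviations within a group sum to 0, so what the arrays lettered a share also enters the values of the other letters. Whether the letters mark pairs is thus not settled. The main fit does not use the letters, and the replicate block is an alternative to it.

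On simulated data the fit called 13% of 2-fold interactions and 71.5% of 4-fold ones. For the genotypes under heme and LPS it called 48% and 85.5%. False calls made up 10.34% of the calls with 2-fold interactions and 4.03% with 4-fold ones. For the genotypes under heme and LPS they made up 8.57% and 5.52%. Alternatives were quantile normalization, subtracting each array's median, exact 0 as missing, a filter on genes at 0, the median over probes, 1 probe per gene, only the compared groups, array weights, the replicate block, no LPS-treated arrays lettered a, and leaving out each array.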

Additional observations from a re-analysis of the deposited data

Results flagged for a closer look

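Within the knockout groups of 4 and 5 arrays, 68 sets of member values were tested for an array far from the others by Dixon's ratio. Of these, 7 stood apart. Chance gives about 5% for a single set, but the sets come from the same arrays and are not independent, so the 2 shares cannot be compared directly. Under LPS, Higd1a stood at 0.903 on array a against 0.15 to 0.23 on the others, and Mxi1 at 0.165 on array a against exactly 0. With the other 3 Mxi1 values at exactly 0, any other value on array a would have been flagged. Under heme and LPS, Adm stood at 1.26 on array a against 3.72 to 4.52, and Ankrd37 at -4.7 on array a against -2.89 to -2.39. There Egln3 stood at -0.984 on array b against -0.12 to 0.23, Kdm3a at 0.000899 against -0.96 to -0.85, and Pfkfb3 at -0.231 against 1.65 to 2.40. Of the 7, 4 are on arrays lettered a and 3 on array b of the knockout under heme and LPS.

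The heme effect differed between the genotypes by the interaction test for 5 genes of the related lists and for 0 of the 34 members. The difference, knockout minus wild type, was -3.58 for Pcx, -2.62 for Gbe1 and -0.745 for Ugp2, and these 3 calls were kept on leaving out any 1 array. It was 1.23 for Sap30 (limma adjusted p = 0.0344) and -0.77 for Bhlhe41 (limma adjusted p = 0.0498). Sap30 (1.004 to 1.42) was not called without wild-type heme b or c, wild-type LPS a or c, knockout heme d or e, or knockout LPS b, c or d. Bhlhe41 (-0.89 to -0.64) was not called without wild-type heme a or c, any wild-type LPS array, knockout heme b, c, d or e, or knockout LPS a, b or c, nor with the replicate block (-0.76, adjusted p = 0.0772).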

How the results depend on the processing

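The number of members called moved by over 1.5 times in these settings. With only the compared groups in the fit it was 3 instead of 15 for heme in wild type, 4 instead of 9 for heme in the knockout, and 1 instead of 10 for the genotypes under heme and LPS. For the interaction it was 3 with array weights and 2, Bnip3 and Ankrd37, without the 4 LPS-treated arrays lettered a, instead of 0. Leaving out each array in turn gave 7 to 10 for LPS against albumin, 3 to 10 for heme in the knockout and 0 to 1 for the interaction. With the replicate block the counts were 16 for LPS against albumin, 18 for heme in wild type and 19 for heme and LPS against albumin. They were 8 for heme in the knockout, 0 for the interaction, 0 for the genotypes under LPS, and 10 for the genotypes with heme before LPS. The counts of this paragraph are not set against the share of all genes called in the same setting. They do not show whether the members moved more than all genes. Beside the changes given with the results, among the paired comparisons the block added calls of Pfkfb2, Adpgk and Pdhx for heme in the knockout (1.18, 0.48 and 0.64) and changed no other call. With 1 probe per gene Epas1 reversed, to 0.80 for LPS against albumin and 0.80 for heme and LPS against albumin. Of 12002 values of single genes under an alternative, 2 reversed, 371 lost a call and 249 gained one. Of simulated 2-fold interactions the fit missed most. Signal over background is not given in the files used here.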
